A study of Mus musculus with 4 samples.

Results

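Ifng-only cells are the T cells of the liver with a caught mRNA for interferon-γ and none of Il17a, Il17f, Foxp3, Mki67, Siglech or Lyz2. Other cytokines, such as Il4 and Il10, were not gated. The Ifng-only cells were selected on measured UMIs (unique molecular identifiers, each counting 1 captured mRNA molecule). A cell had more than 200 genes and under 5% of its UMIs from mitochondrial genes, at least 1 Ifng UMI, at least 1 UMI of Cd3e, Cd3d or Cd3g, and 0 UMIs of Il17a, Il17f, Foxp3, Mki67, Siglech and Lyz2. This rule found 2095 Ifng-only cells among 28018 filtered cells, of which 1389 came from the library labelled WT and 706 from the library labelled dKO. Because Ifng and the other 9 genes chose the cells, their levels are given as a description.

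Hepatic CD4+ T cells were sorted from mice with diet-induced MASH and profiled by droplet sequencing of 5′ mRNA ends and of T cell receptors. The dKO mice carried floxed Nr4a1 and Nr4a2 (Nr4a1 fl/fl Nr4a2 fl/fl) with Cd4Cre, in which the Cd4 promoter drives Cre and so recombines both genes in cells that have passed through Cd4 expression, CD8 T cells and NKT cells included. WT mice were the controls. All animals were male and ate a choline-deficient, high-fat diet with 60 kcal% fat and 0.1% methionine, and each library pooled 2 mice that the tables do not tell apart. With 1 library per genotype no difference between genotypes could be tested, so intervals below are exact 95% intervals that cover counting error only, and differences between mice, preparation or sequencing cannot be told apart from genotype.

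Th1 cells are the CD4+ T helper cells that secrete interferon-γ, under the transcription factor T-bet (Tbx21) and in answer to IL-12 and IL-18. Interferon-γ activates macrophages and raises antigen presentation, and in the fatty liver IFN-γ-producing T cells are among the lymphocytes that accompany inflammation. The NR4A family (Nr4a1, Nr4a2, Nr4a3) are nuclear receptors induced within hours of antigen receptor signalling that restrain effector function in T cells.

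The targeted genes went against the genotype label. Ifng-only cells of the library labelled WT held Nr4a1 (chromosome 15: 101254269 to 101274795, GRCm38) at 917 CPM (UMIs of a gene per 1000000 UMIs summed over the cells), and those of the library labelled dKO held 1801 CPM, a log2 ratio of 0.97 (0.89 to 1.05). Nr4a2 was at 266 and 575 CPM, a log2 ratio of 1.11 (0.97 to 1.25). Nr4a3, which was not targeted, was at 353 and 325 CPM, a log2 ratio of −0.12. The counts do not resolve exons, and RNA from exons outside a floxed segment is counted with the rest, so a gene-level count does not show whether the protein could be made. A swap of the library labels and RNA from exons outside the floxed segments cannot be told apart by the counts of these genes. Directions below are therefore given by the label of the library alone.

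Ifng-only cells made up a smaller share of the library labelled dKO. They were 13.2% of filtered cells labelled WT (12.5 to 13.8, n = 10556) and 4.04% of those labelled dKO (3.76 to 4.35, n = 17462). Among T cells, defined by the same Cd3, Siglech and Lyz2 gates, the shares were 18.7% (17.8 to 19.6) and 6.18% (5.74 to 6.63). Among T cells with no Foxp3 and no Mki67 UMI, which takes cells with a UMI of either gene out of the denominator, they were 21.8% (20.8 to 22.9) and 9.01% (8.38 to 9.66). The cells of that denominator with no UMI of Ifng, Il17a or Il17f, called cytokine-negative here, still held the list of Treg genes at a summed 1620 CPM labelled WT and 6723 CPM labelled dKO. None of these 3 pairs of intervals overlapped. In cells thinned to 2000 UMIs each, the shares of filtered cells were 13.6% and 2.47%, and those of T cells were 18.7% and 6.03%. That depth kept 191 of 706 members labelled dKO but 2682 of 2927 Siglech-positive cells, which are in the denominator of the 2.47%. Siglech-positive here means at least 2 Siglech UMIs and no Cd3 UMI. Ifng UMIs outside T cells were rare: 7 of 942 cells with at least 2 Siglech UMIs and no Cd3 UMI had one in the library labelled WT (0.74%) and 14 of 2927 in the library labelled dKO (0.48%), and for cells with at least 2 Lyz2 UMIs the counts were 2 of 165 and 1 of 251.

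**Figure D1:**
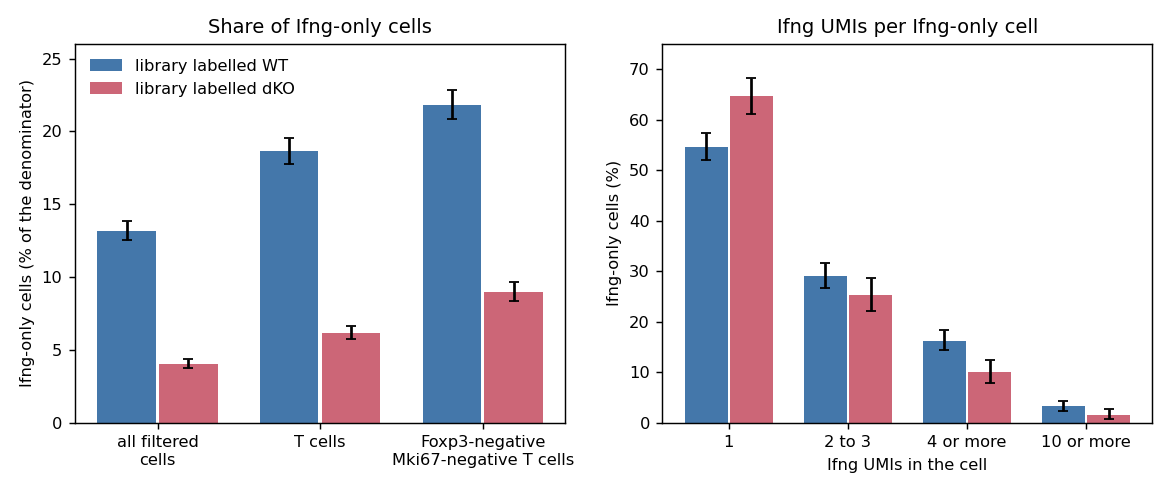
Left, Ifng-only cells as a percent of 3 denominators in the library labelled WT (blue) and the library labelled dKO (red); right, the percent of Ifng-only cells with 1, 2 to 3, 4 or more and 10 or more Ifng UMIs, where the last class is part of the one before it. Bars are percents and error bars exact 95% binomial intervals; the WT bars stand above the dKO bars on every denominator (13.2% against 4.04% of filtered cells), and 1 Ifng UMI is the commonest count in both libraries (54.6% and 64.7%).

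The gates removed different cells in each library. Of 1981 filtered cells with an Ifng UMI labelled WT, the Mki67 gate alone left out 203, the Foxp3 gate alone 44 and the Il17 gate alone 26. Of 1098 labelled dKO, the Mki67 gate alone left out 53, the Foxp3 gate alone 101 and the Il17 gate alone 6. Cycling cells were thus the larger loss in the library labelled WT and Foxp3-positive cells in the library labelled dKO. Absent Cd3 UMIs alone left out 64 and 29 cells, Siglech alone 61 and 69, Lyz2 alone 101 and 54, and at least 2 gates together 93 and 80.

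Most members sat at the threshold. A single Ifng UMI was seen in 759 cells labelled WT (54.6%) and 457 labelled dKO (64.7%), and the cells just outside, with 0 Ifng UMIs under the same gates, were 4807 and 6846 cytokine-negative cells. At least 4 Ifng UMIs were found in 16.3% (14.4 to 18.3) and 10.1% (7.94 to 12.5) of members, and the highest counts were 48 and 19. The 139 and 71 members with most Ifng UMIs carried 39.0% of 3355 Ifng UMIs labelled WT and 34.9% of 1334 labelled dKO. Depth differed between the groups: the median member had 1917 UMIs and 1059 genes in the library labelled WT and 1461.5 UMIs and 849.5 genes in the library labelled dKO, and the median cytokine-negative cell 1556 and 1254 UMIs, and 0 Ifng UMIs at these depths does not show that a cell lacked Ifng mRNA. Over all members the totals were 3314638 and 1231258 UMIs. The filtered libraries held 23437516 and 37794986 UMIs.

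The Th1 markers apart from Ifng were present. At 2000 UMIs per cell, which kept 650 and 191 members and left out 739 and 515 shallower ones, Tbx21 was seen in 28.0% of members labelled WT (24.6 to 31.6) against 15.3% of cytokine-negative cells, and in 21.5% (15.9 to 28.0) against 13.9% labelled dKO. Nkg7, a granule protein of cytotoxic lymphocytes, was seen in 60.6% against 34.0% and in 70.2% against 49.5%. Cxcr6, the receptor that holds T cells in the liver sinusoids, was seen in 48.6% against 32.5% and in 39.3% (32.3 to 46.6) against 35.7% (32.9 to 38.6), the pair labelled dKO overlapping. Without thinning, Tbx21 was seen in 32.4% and 18.4% of members, Nkg7 in 62.3% and 64.2% and Cxcr6 in 49.96% and 34.3%. In the Siglech-positive cells at 2000 UMIs these 3 genes were seen in at most 1.99%. As summed levels, Tbx21 was at 200 CPM in members labelled WT and 132 CPM in those labelled dKO, Nkg7 at 736 and 1615 CPM, and Cxcr6 at 464 and 343 CPM. Among markers of other lineages, Cd8a had 0 and 1 UMIs over all members labelled WT and dKO, Cd8b1 had 14 and 15, Trdc of γδ T cells had 5 and 6, and the B cell list summed to 21.4 and 18.7 CPM. The γδ constant region genes Tcrg-C4 and Tcrg-C2 had 36 and 35 UMIs in members labelled WT and 8 and 7 in those labelled dKO. The list of NK and group 1 innate cell genes summed to 241 and 231 CPM in members and to 167 and 165 CPM in the cytokine-negative cells, which passed the same gates with no Ifng UMI. Summed levels of the dendritic cell list were 529 and 686 CPM and of the macrophage list 465 and 469 CPM. Cd4 itself was seen in 43.8% and 65.6% of members without thinning, and in 42.6% (38.8 to 46.5) and 74.3% (67.5 to 80.4) at 2000 UMIs. Siglech-positive cells also carried Cd4, in 34.0% and 39.0% at that depth.

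Between the libraries, members labelled dKO held more mRNA of the chemokines Ccl3, Ccl4 and Ccl5, of several checkpoint and costimulatory receptors and of several granule genes, and less of CD40 ligand. Of 7911 genes with a mean of at least 10 CPM, 187 (2.36%) were at least 2-fold higher in members of the library labelled dKO and 232 (2.93%) at least 2-fold lower, with a median log2 ratio of −0.06 over all genes. Scaled by TMM, which sets the libraries level on the bulk of their genes, the counts were 205 higher and 196 lower. The counting interval lay above 0 for 187 of the 187 and below 0 for 224 of the 232. Cytokine-negative cells of the same libraries, set side by side, had a log2 ratio of the same sign for 174 of 184 of the higher genes with a value there, past 2-fold for 133, and for 217 of the 232 lower genes, past 2-fold for 85.

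Among 7 chemokine genes measured, 3 were past 2-fold higher in members labelled dKO and 0 past 2-fold lower. Ccl5 (RANTES, which draws T cells and monocytes, chromosome 11: 83525778 to 83530518) was at 2913 CPM in members labelled WT and 14159 CPM in those labelled dKO, a log2 ratio of 2.28 (2.25 to 2.32). Single cells overlapped widely, since 70.9% of members labelled WT and 82.3% of those labelled dKO had a Ccl5 UMI, with a median cell at 1255 and 4768 CPM and the 90th percentile at 9872 and 48201 CPM. Ccl4, a macrophage inflammatory protein, was at 159 and 1341 CPM (log2 ratio 3.08, 2.93 to 3.22), and Ccl3, its close relative, at 32.3 and 291 CPM (log2 ratio 3.17). Of 7 chemokines measured, 3 were past 2-fold higher and 0 lower. Ccl4 came from few cells, 7.99% of members labelled WT and 20.5% of those labelled dKO. Xcl1 (lymphotactin, which draws cross-presenting dendritic cells) was at 310 and 242 CPM and Ccl1 at 104 and 71.5 CPM, so that the gap did not run through all chemokines.

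Checkpoint and costimulatory receptors were past 2-fold higher in members labelled dKO in 9 of 19 genes measured and past 2-fold lower in 0, with a median log2 ratio of 0.99. Lag3, an inhibitory receptor that binds MHC class II, was at 6.94 CPM and 135 CPM, a log2 ratio of 4.28 (3.65 to 4.98) and the widest among the genes the ranking named. At 2000 UMIs per cell Lag3 was seen in 0.92% of members labelled WT and 19.4% (14.02 to 25.7) of those labelled dKO. Tigit was at 110 and 463 CPM, Ctla4 at 313 and 811 CPM and Pdcd1, which encodes PD-1, at 129 and 262 CPM. Of the costimulatory receptors, Tnfrsf4 (OX40) was at 194 and 824 CPM and Tnfrsf18 (GITR) at 231 and 612 CPM. Tigit, Ctla4, Tnfrsf4 and Tnfrsf18 also belong to the list of Treg genes, of which 8 of 13 were past 2-fold higher although every member had 0 Foxp3 UMIs. Il10, the anti-inflammatory cytokine, was at 6.34 and 93.4 CPM, from 0.79% and 8.92% of members. Of 6 follicular helper genes 5 were past 2-fold higher, Sh2d1a and Izumo1r among them.

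Granule genes differed in both directions. Gzmk, a granzyme of memory-like T cells, was at 38.6 CPM in members labelled WT and 249 CPM in those labelled dKO (log2 ratio 2.69), and Gzmb was at 63.1 and 224 CPM. Gzma was lower, at 55.5 and 19.5 CPM, but 70.8% of its UMIs labelled dKO lay in 1 cell. Of 18 cytotoxic genes, 5 were past 2-fold higher and 4 lower. Eomes, the T-box factor related to T-bet, was at 5.73 and 40.6 CPM and seen in 0.86% and 5.10% of members, while Tbx21 had a log2 ratio of −0.61 (−0.86 to −0.36). Among 18 genes of type 1 differentiation, 2 were past 2-fold higher (Eomes and Prdm1) and 1 lower (Ifngr2, the second chain of the interferon-γ receptor, at 19.9 and 7.31 CPM).

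Among the genes lower in members labelled dKO were Cd40lg, Grap2, Trat1 and Rgs10. Cd40lg, the ligand with which helper T cells license B cells and dendritic cells, was at 568 and 240 CPM (log2 ratio −1.24) and was seen in 55.7% (51.8 to 59.6) and 26.7% (20.6 to 33.6) of members at 2000 UMIs. Grap2 (GADS, an adaptor of the T cell receptor) was at 863 and 226 CPM, and Trat1, a receptor-associated adaptor, at 147 and 39.8 CPM. Rgs10, a brake on G protein signalling, had the lowest ratio among the genes the ranking named, −2.68 (−3.29 to −2.13), from 146 and 22.7 CPM. Cdk8 (a Mediator kinase) was at 7319 and 2295 CPM and Ccr4 at 77.8 and 21.1 CPM. In members labelled WT Cdk8 held 24259 UMIs, where B2m held 10271. Whether the Cdk8 counts come from mRNA of that gene was not tested. Il2, the T cell growth factor, was at 53.4 and 25.2 CPM. The remaining lowest genes were Filip1l (244 and 60.9 CPM), St8sia1, which encodes a sialyltransferase (63.1 and 16.2 CPM), Gm48099 and Tmem64.

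Several of these gaps had their counterpart in cytokine-negative cells of the same libraries. There the log2 ratio was 4.07 for Lag3, 2.44 for Ccl5, 2.97 for Ccl4, 4.54 for Il10, 2.30 for Gzmk, 1.08 for Nkg7 and 1.88 for Cd4. Those 7 values and the values in members came from the same pair of libraries. Among the lower genes it was −1.83 for Rgs10, −1.75 for Cdk8, −1.73 for Grap2 and −1.82 for Cd40lg. Among the 10 highest genes Igfbp7 alone was under 2-fold there, at 0.28, and 59 of its 79 UMIs in members labelled dKO lay in 1 cell. Spp1, which encodes osteopontin, had a log2 ratio of 4.27 in members from 22 cells labelled dKO, with 23.3% of its UMIs in 1 cell. The other genes among the 10 highest were Neb, Mt1 and Sdc4, with log2 ratios of 4.09, 2.91 and 2.71.

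**Figure D2:**
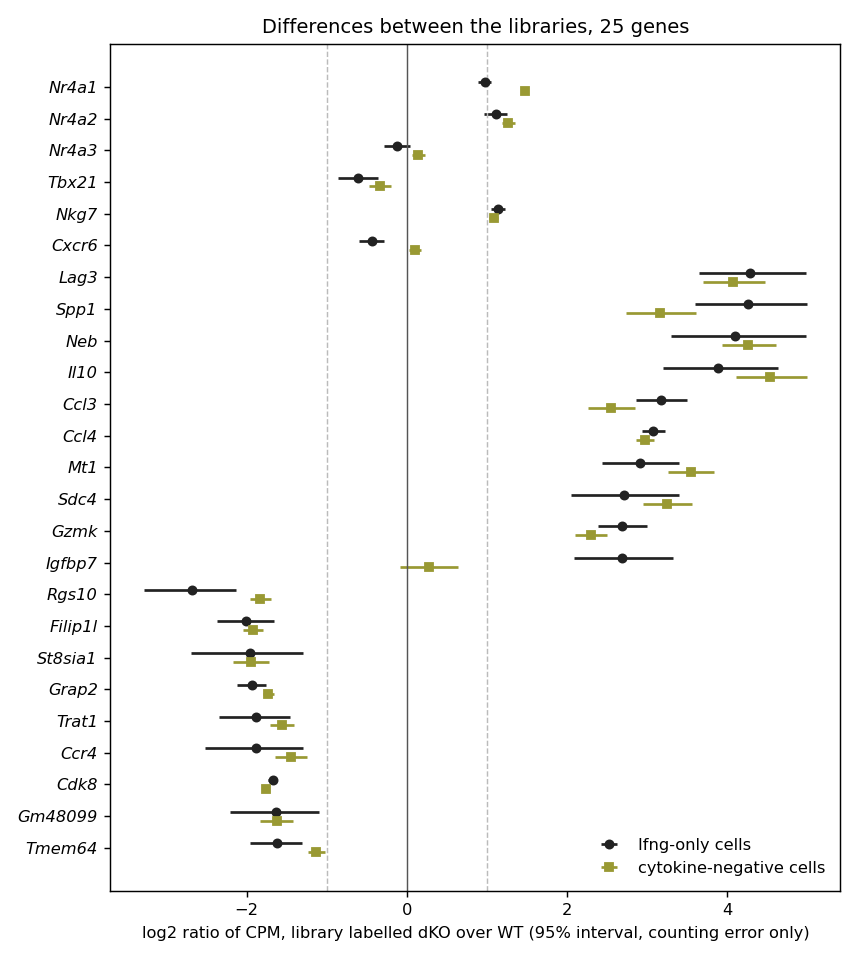
Log2 ratio of CPM in the library labelled dKO over the library labelled WT for Nr4a1 to Nr4a3, 3 Th1 markers and the named genes at each end, in Ifng-only cells (black circles) and cytokine-negative cells (olive squares), with exact 95% intervals for counting error and dashed lines at 2-fold. For most genes the circle and the square lie on the same side of 0, as for Lag3 at 4.28 and 4.07, and Igfbp7 shows the widest separation among the higher genes, at 2.69 and 0.28.

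Siglech-positive cells (at least 2 Siglech UMIs and no Cd3 UMI) carry a marker of plasmacytoid dendritic cells. They were 2927 of the filtered cells labelled dKO and 942 of those labelled WT, and they carried Ccl4, Ccl3, Lag3 and Sdc4 themselves. In the library labelled dKO their Ccl4 level was 11735 CPM, so members stood at 11.4% of it, and for Lag3 at 57.8% of 233 CPM. The plasmacytoid genes Ly6d, Klk1, Tcf4 and Irf8 stood in the same members at 0.95%, 0.74%, 1.15% and 1.86% of their levels in Siglech-positive cells. Runx2 and Bst2, which T cells also express, stood there at 27.6% and 4.33%, and the whole list of 10 plasmacytoid genes, summed, at 2.92%. In the library labelled WT members stood at 1.37% for Ccl4 and 4.06% for Lag3. There Ly6d stood at 0.27%, Klk1 at 0.31%, Tcf4 at 0.47%, Irf8 at 1.37%, Bst2 at 3.44%, Runx2 at 19.1% and the summed list at 2.06%. Ccl4 labelled WT was over Ly6d, Klk1 and Tcf4 and under Bst2, Runx2 and the summed list. Ccl4 labelled dKO was over each of these but Runx2. Over the whole list of 10 plasmacytoid genes, the members' summed level was 348 CPM labelled WT and 468 CPM labelled dKO, and Runx2 and Bst2 made up most of it. The part of these cells' RNA in the members' Ccl4 and Lag3 levels was not tested. Ccl5 was at 44.1 and 45.05 CPM in the Siglech-positive cells, far under its level in members.

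Within each library, members were set beside the cytokine-negative cells, which passed the same gates with 0 Ifng UMIs. Members held more mRNA of Ccl1, Xcl1, Ccl4, Klrk1, Klrd1, Slamf7 and Il12rb2 and less of Ccr7 in both libraries. Of 7913 genes tested, 16 (0.202%) were at least 2-fold higher in members in both libraries and 16 (0.202%) at least 2-fold lower in both. With TMM scaling (trimmed mean of M values, which corrects for composition) in place of CPM, the split was 9 higher and 21 lower. All 9 were among the 16 higher by CPM, so the rest of those 16 were not past 2-fold in both libraries with TMM. The median log2 ratio over all genes was 0.08 labelled WT and −0.03 labelled dKO by CPM, and −0.02 and −0.04 with TMM. The counting interval lay above 0 in both libraries for 304 genes and below 0 in both for 139, while for 125 it lay above 0 labelled WT and below 0 labelled dKO, and for 28 the reverse.

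Of the chemokine genes, Ccl1, a ligand of CCR8, was at 104 CPM in members and 24.6 CPM in cytokine-negative cells labelled WT, and at 71.5 and 30.6 CPM labelled dKO, with log2 ratios of 2.08 and 1.22. It came from few cells: 31 members labelled WT carried it, and 27.0% of its UMIs lay in 1 of them. Xcl1 was at 310 against 153 CPM and 242 against 71.0 CPM, with log2 ratios of 1.02 (0.90 to 1.14) and 1.77 (1.57 to 1.97). Ccl4 had log2 ratios of 1.08 and 1.19 and Ccl5 of 0.93 and 0.77. By CPM, 4 of 7 chemokines were past 2-fold higher in both libraries and 1 lower, Cxcl2, with medians of 1.08 and 1.19. The ratio of Xcl1 labelled WT, 1.02, lay close to the cutoff.

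Klrk1, Klrd1 and Slamf7, receptors shared with NK cells, were past 2-fold higher in both libraries by CPM. Klrk1 (NKG2D) was at 113 against 51.6 CPM labelled WT and 87.7 against 25.1 CPM labelled dKO, with log2 ratios of 1.12 (0.92 to 1.32) and 1.81 (1.47 to 2.14). Klrd1 (CD94) had log2 ratios of 1.08 and 1.57 and Slamf7, a SLAM family receptor, of 1.17 and 1.68. Klrg1, an inhibitory receptor also found on NK cells and named after its values were seen, stood at 0.19 (−0.22 to 0.59) and −1.54 (−1.81 to −1.28). The list of NKT cell genes, which holds Xcl1, Klrk1 and Klrd1, had 4 of 7 genes past 2-fold higher in both libraries by CPM. The list summed to 1040 and 984 CPM in members against 600.0 and 694 CPM in cytokine-negative cells. Without cells that carried the invariant TRAV11 and TRAJ18 chain, Klrk1 stood at 1.12 and 1.81, Klrd1 at 1.12 and 1.57 and Xcl1 at 0.91 and 1.81, and NKT cells without a recovered TRA could not be left out. Il12rb2, the signalling chain of the IL-12 receptor, was at 175 against 84.6 CPM and 103 against 43.8 CPM, with log2 ratios of 1.05 and 1.23. Il18rap, a chain of the IL-18 receptor, stood at 0.92 and 0.87, and the granzyme B inhibitor Serpinb9 at 0.94 and 0.87. Ly6c2 stood at 0.92 and 1.56. By CPM, Il12rb2 was the one gene of 18 for type 1 differentiation past 2-fold higher in both libraries, and Ifngr2 the one lower. The ratio of Il12rb2 labelled WT, 1.05, lay close to the cutoff.

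At the low end, Ccr7, the lymph node homing receptor, was at 99.3 against 319 CPM labelled WT and 57.7 against 160 CPM labelled dKO, with log2 ratios of −1.69 (−1.85 to −1.52) and −1.48 (−1.84 to −1.13). At 2000 UMIs per cell it was seen in 11.4% of members against 31.2% of cytokine-negative cells labelled WT, and in 6.28% against 15.6% labelled dKO. Of 13 genes of naive and recirculating cells, 4 were past 2-fold lower in both libraries and 0 higher, with medians of −0.92 and −0.72. Comparison cells without naive or Treg genes were 2295 labelled WT and 2537 labelled dKO. Beside them fewer genes were past 2-fold lower in both libraries, as counted in the last section. Areg (amphiregulin, a tissue repair factor of Tregs and type 2 cells) was at 59.1 against 129 CPM and 145 against 471 CPM. S1pr1, the receptor for egress from tissue, had log2 ratios of −0.61 and −0.72, and Rgs10 of −0.53 and −1.39. The remaining genes at this end were Trib2, Ets2, Adk, Ramp1, H2-Eb1 and Tcp11l2, with ratios between −1.06 and −0.57 in both libraries.

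**Figure D3:**
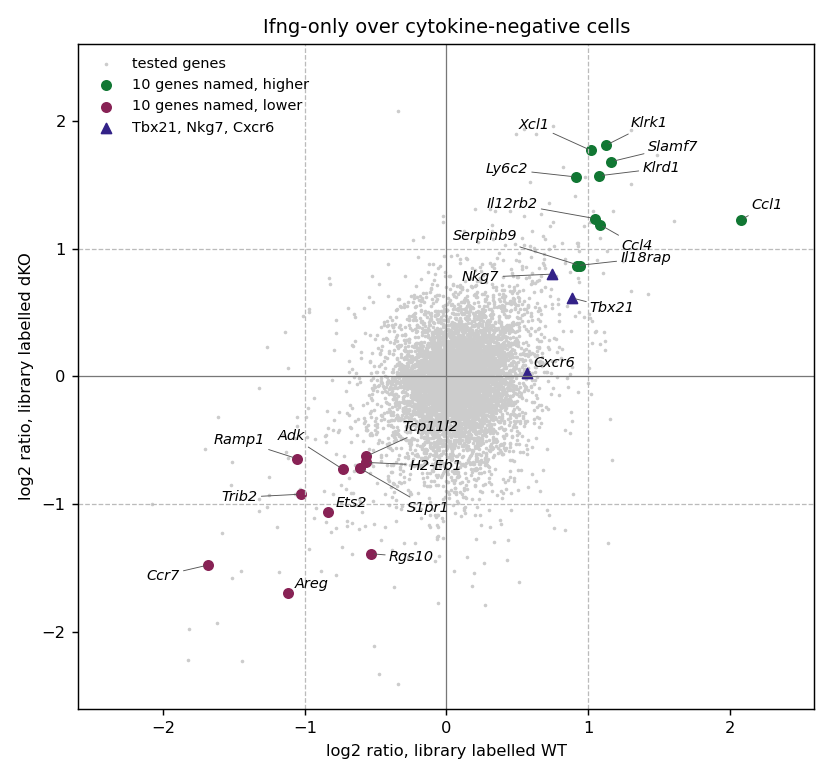
Log2 ratio of CPM in Ifng-only over cytokine-negative cells for 7909 of 7913 tested genes (grey), in the library labelled WT (horizontal) and the library labelled dKO (vertical), with dashed lines at 2-fold and 2 genes beyond the axes. Green points are the 10 named higher genes, purple points the 10 named lower genes and triangles Tbx21, Nkg7 and Cxcr6; Klrk1 stands at 1.12 and 1.81 and Ccr7 at −1.69 and −1.48, and Cxcr6 lies near 0 on the vertical axis alone, at 0.57 and 0.03.

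The Th1 markers and the Nr4a genes did not pass 2-fold within either library. Tbx21 had log2 ratios of 0.89 (0.74 to 1.03) labelled WT and 0.61 (0.36 to 0.86) labelled dKO, Nkg7 of 0.75 and 0.80, and Cxcr6 of 0.57 (0.48 to 0.66) and 0.03 (−0.12 to 0.18). Nr4a1 was higher in members than in cytokine-negative cells labelled WT, at 917 against 640 CPM (log2 ratio 0.52, 0.46 to 0.58), and nearly level labelled dKO, at 1801 against 1772 CPM (0.02, −0.04 to 0.09). Nr4a2 stood at 0.47 and 0.31. Checkpoint and costimulatory receptors had 0 of 19 genes past 2-fold in both libraries in either direction. Of 13 Treg genes measured, 0 were higher and 1 lower in both libraries, with medians of 0.02 and −0.76.

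Chemokine levels varied between members with different numbers of Ifng UMIs, without a common direction. In members labelled dKO, Ccl4 was at 1182 CPM with 1 Ifng UMI (1107 to 1261), 1035 CPM with 2 to 3 (925 to 1155) and 2896 CPM with at least 4 (2622 to 3192). Ccl3 was at 190, 269 and 894 CPM in these classes of 457, 178 and 71 cells. Ccl5 ran the other way, at 15228, 12773 and 11316 CPM. In members labelled WT, with 759, 404 and 226 cells, Ccl5 was at 2745, 2666 and 3717 CPM and Ccl4 at 195, 68.0 and 212 CPM. In both libraries the Ccl4 value was lowest in the class with 2 to 3 Ifng UMIs, where its interval labelled dKO overlapped that of the cells with 1. Of the Ccl4 UMIs, 152 of 1651 labelled dKO and 82 of 527 labelled WT lay in 1 cell, which the intervals do not cover. Tnf, a cytokine often made together with interferon-γ, was at 93.3, 128 and 142 CPM labelled WT and at 68.1, 99.4 and 121 CPM labelled dKO. Tbx21 intervals overlapped across all 3 classes within each library. The median depth of the classes was 1734, 2082.5 and 2332 UMIs labelled WT and 1454, 1487.5 and 1525 UMIs labelled dKO, and its part in these values was not tested.

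Receptor sequences tied members to clones. A productive TRB contig, the assembled mRNA of the receptor beta chain, was found in 610 of 1389 members labelled WT (43.9%) and 212 of 706 labelled dKO (30.03%), against 38.05% and 28.2% of cytokine-negative cells. Both chains were found in 392 and 116 members. Clonotypes are shown here by the beta chain CDR3, the segment that meets the peptide, for the 3 clonotypes with most members labelled WT and the 2 labelled dKO, printed 5′ to 3′ from the codon of the conserved cysteine:
WT clone 1, TRBV13-1 and TRBJ2-2: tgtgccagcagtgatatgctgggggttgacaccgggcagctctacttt
WT clone 2, TRBV13-1 and TRBJ2-5: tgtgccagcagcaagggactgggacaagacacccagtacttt
WT clone 3, TRBV12-2+TRBV13-2 and TRBJ2-7: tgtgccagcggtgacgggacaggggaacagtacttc
dKO clone 1, TRBV31 and TRBJ1-1: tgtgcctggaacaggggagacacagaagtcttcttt
dKO clone 2, TRBV19 and TRBJ2-7: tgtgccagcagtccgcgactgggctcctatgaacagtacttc
Each differs from the others in length or letters, and none was found in the other library.

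The share of members in clones did not differ between the libraries beyond counting error. A clonotype of at least 2 filtered cells held 206 of 392 members labelled WT (52.6%, 47.5 to 57.6) and 60 of 116 labelled dKO (51.7%, 42.3 to 61.1), so the intervals overlapped over most of their length. Among cytokine-negative cells the shares were 36.9% labelled WT and 51.4% labelled dKO. Members labelled WT were thus in clones more often than the cytokine-negative cells beside them, and for those labelled dKO the intervals overlapped. The 5 clonotypes with most members held 56 members labelled WT (14.3%) and 26 labelled dKO (22.4%). In all, 275 and 93 clonotypes held a member, and 38 and 7 held at least 2.

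In most of the leading clones, most cells were not members. WT clone 1 had 70 cells, of which 14 were members, 29 held an Mki67 UMI and 25 were cytokine-negative. WT clone 3 had 12 members among 17 cells (70.6%, 44.04 to 89.7), and dKO clone 4 had 3 among 5. In the library labelled dKO, clone 1 had 9 members among 26 cells and clone 2 had 8 among 35, of which 9 held an Mki67 UMI and 3 a Foxp3 UMI. Over all clonotypes of at least 2 cells that held a member, 16 of 662 cells labelled WT (2.42%) and 142 of 542 labelled dKO (26.2%) had a Foxp3 UMI. That gap rested largely on 1 clonotype labelled dKO of 281 cells, which held 112 Foxp3-positive cells and 1 member.

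**Figure D4:**
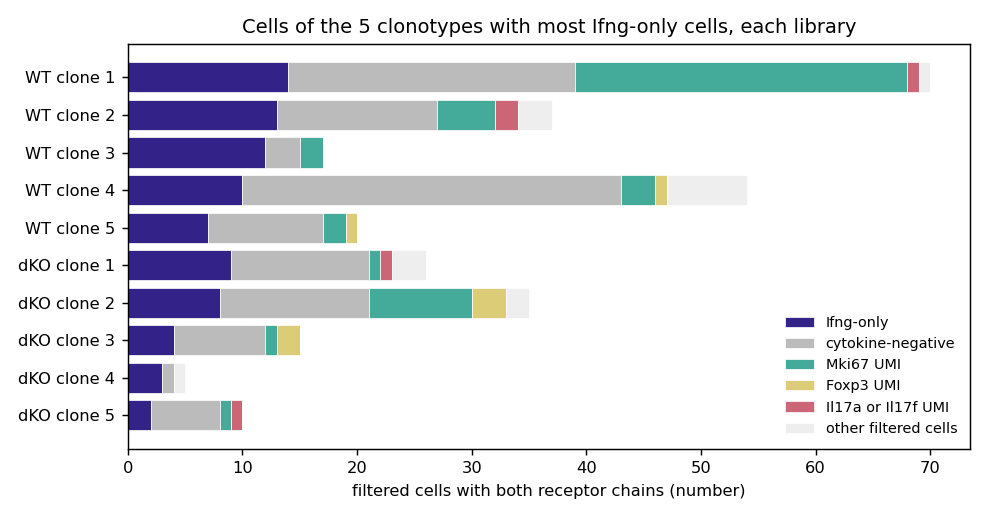
Number of filtered cells with both receptor chains in the 5 clonotypes with most Ifng-only cells, for each of the libraries, coloured by class. Ifng-only cells (dark blue) run from 14 of 70 in WT clone 1 to 2 of 10 in dKO clone 5, WT clone 3 is the clone with the highest share of them (12 of 17), and Mki67-positive cells are the widest class in WT clone 1 (29).

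The 2 leading dKO clones stood apart from other members in Ccl5. Summed over its 9 members, dKO clone 1 held Ccl5 at 78416 CPM and dKO clone 2, over 8 members, at 46067 CPM, against 10711 CPM in the 95 paired members labelled dKO outside clones 1 to 3. Nkg7 was at 6061 and 3242 CPM against 1412 CPM, Ccl4 at 5742 and 5985 CPM against 757 CPM and Lag3 at 1010 and 285 CPM against 88.0 CPM. The same members had 0 Tbx21 UMIs and 0 Cd40lg UMIs, where the others stood at 161 and 279 CPM. Ifng, at 691 and 285 CPM against 796 CPM, chose the members and is no comparison, and each member of dKO clone 2 held 1 Ifng UMI. dKO clone 3, with 4 members, held Ccl5 at 8648 CPM and Nkg7 at 1829 CPM. In WT clones 1, 2 and 3 Ccl5 was at 3069, 732 and 7529 CPM against 2292 CPM in the 353 paired members outside these clones. Cells with the beta chains of both dKO clones were then left out, a choice made after these values were seen, which kept 681 members labelled dKO. The log2 ratio between libraries was then 2.03 for Ccl5, 2.83 for Ccl4, 4.05 for Lag3, 2.45 for Gzmk and 0.98 for Nkg7, so that Nkg7 dropped under 2-fold and the others did not. Of the members labelled dKO, 494 had no TRB contig, so cells of these clones without a recovered beta chain could not be left out.

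**Figure D5:**
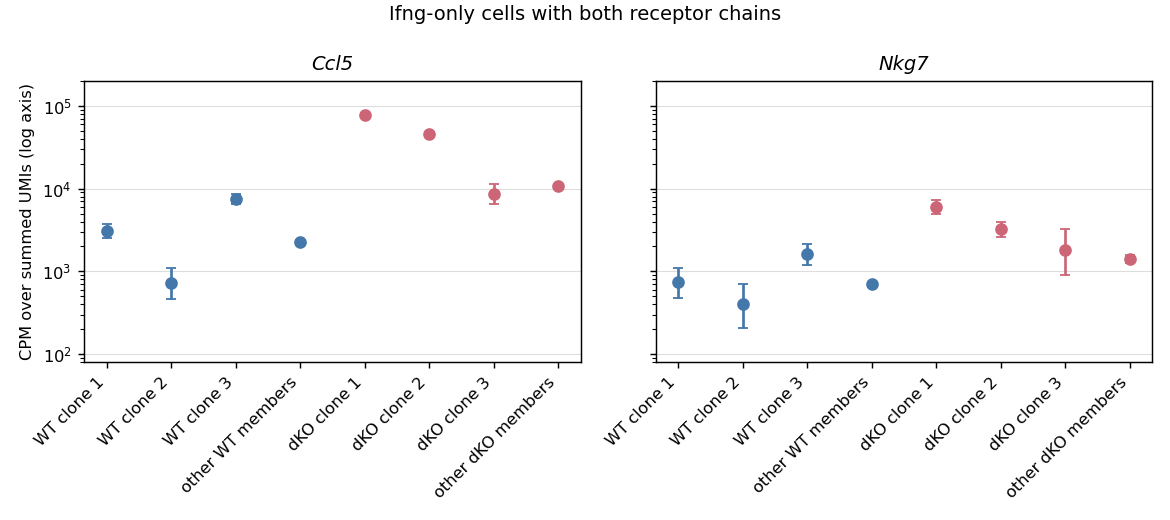
CPM over summed UMIs (log axis) of Ccl5 (left) and Nkg7 (right) in the Ifng-only cells of the 3 clonotypes with most members and in the other members with both chains, labelled WT (blue) or dKO (red), with exact 95% Poisson intervals. Ccl5 in dKO clones 1 and 2 (78416 and 46067 CPM) lies above every other group shown, and Nkg7 in the same clones is at 6061 and 3242 CPM.

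Some members carried the invariant alpha chain of type I NKT cells, TRAV11 joined to TRAJ18, which recognizes lipid on CD1d. It was found in 17 of 458 members with a TRA contig labelled WT (3.71%, 2.18 to 5.88) and 14 of 143 labelled dKO (9.79%, 5.46 to 15.9), against 2.30% and 2.57% of cytokine-negative cells. The 31 members held 7 distinct CDR3 sequences of 45 bases, which are shown since they differed only at positions 9 to 12, given in capitals. The 4 commonest differ only at position 12, held 28 of the 31 cells and were found in both libraries:
8 members labelled WT and 3 labelled dKO: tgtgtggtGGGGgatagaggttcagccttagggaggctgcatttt
1 member labelled WT and 7 labelled dKO: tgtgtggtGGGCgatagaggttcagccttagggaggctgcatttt
4 members labelled WT and 1 labelled dKO: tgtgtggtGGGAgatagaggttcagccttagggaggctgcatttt
2 members labelled WT and 2 labelled dKO: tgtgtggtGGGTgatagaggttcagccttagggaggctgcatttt
Their transcripts differed from those of the other members. Zbtb16, which encodes the NKT factor PLZF, was at 280 CPM in invariant members labelled WT and 13.0 CPM in the other members with a TRA, and at 166 and 7.36 CPM labelled dKO. Xcl1 was at 1755 against 264 CPM and 525 against 125 CPM, and Il4 at 243 against 15.4 CPM and 221 against 3.68 CPM. Ccl5 was lower in the invariant members, at 1568 against 2594 CPM and 6437 against 19399 CPM. The last value includes the members of dKO clones 1 and 2, which were high in Ccl5. The 95 paired members labelled dKO outside clones 1 to 3 stood at 10711 CPM. The alpha chain of mucosal-associated invariant T cells (TRAV1 with TRAJ33) was found in 0 members with a TRA, which by the exact interval allows a share of up to 0.80% labelled WT and 2.55% labelled dKO.

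One alpha gene pair recurred in a leading clone of each library, a match chosen after the sequences were seen. WT clone 3 and dKO clone 4, which had 3 members among 5 cells, both joined TRAV7D-2 to TRAJ22, with CDR3s of 42 bases that differed only at positions 10 to 14, in capitals:
WT clone 3: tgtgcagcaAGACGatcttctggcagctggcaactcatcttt
dKO clone 4: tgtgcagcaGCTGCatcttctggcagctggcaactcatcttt
The pair was used by 18 of 458 members with a TRA labelled WT, in 3 distinct sequences, and by 3 of 143 labelled dKO, in 1. The beta chains of the clones differed.

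Members without a TRB contig were compared with those that had one. In the library labelled WT, Tyrobp, an adaptor of NK and myeloid cells, was at 24.3 CPM with a TRB and 63.6 CPM without, and in the library labelled dKO at 9.69 and 85.5 CPM. Cd74, the invariant chain of MHC class II, was at 223 and 341 CPM and at 247 and 530 CPM. Ifng itself was at 939 and 1085 CPM and at 957 and 1147 CPM, and the NK receptor gene Ncr1 was at 10.3 CPM with a TRB and 8.40 CPM without in members labelled WT, and had 0 UMIs with a TRB and 4 without in those labelled dKO. Members with a TRB were deeper, with medians of 2249 against 1695 UMIs labelled WT and 1687 against 1380.5 labelled dKO. The part of NK or myeloid mRNA in the results was not tested. A rank of simulated doublet scores marked 891 and 2439 filtered cells. Without these and without cells with at least 2 TRB chains, members were 12.8% and 4.07% of filtered cells. The libraries shared 245 cell barcodes, carried by 29 members labelled WT and 11 labelled dKO, and 0 of the 25 with a TRB contig in both had the same beta chain.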

How the data were processed

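Hepatic CD4+ T cells of 1 library per genotype, each pooled from 2 mice, were profiled with Chromium Next GEM Single Cell 5′ v2 chemistry. The authors deposited UMI counts per gene and cell, made with Cell Ranger 7.0.1 per the file headers on mm10 per the submitters' processing notes, with no normalization applied, and receptor tables that list each assembled contig with its UMI counts, V and J genes and CDR3. UMIs collapse PCR copies. Cells with over 200 genes and under 5% mitochondrial UMIs were kept, as in the study's methods, and members were then taken by UMIs of the 10 genes in the rule. Counts of members were summed per library and given as CPM, without rounding or pseudocount. A gene entered a comparison at a mean of at least 10 CPM and was counted past a log2 ratio of 1 or −1. No test was run, since each genotype has 1 library. Intervals are exact at 95% (Clopper-Pearson for shares, Poisson for CPM, conditional binomial for ratios) and cover counting error only. The ratio intervals were tried on simulated counts with Poisson error alone. That trial does not show how they hold where 1 cell carries many of the UMIs. A gene with 0 UMIs is given as UMIs.

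The genes named are Nr4a1, Nr4a2, Nr4a3, Ifng, Tbx21, Nkg7 and Cxcr6, the 10 at each end of each ratio among genes that reach 50 CPM in 1 group and 10 UMIs in the lower one, and the 4 most abundant members of each of 29 lists (a few so chosen are left unreported); genes that the lists' counts single out and genes of clones or invariant cells were chosen after their values were seen. The cells, the lists and the markers were chosen with earlier results of these data known. The rankings left out the rule's own genes, receptor and antibody chains, and ribosomal protein and mitochondrial genes. Gene positions are from a GENCODE annotation of GRCm38, in which 32235 of 32285 genes of the tables were found. A clonotype is the TRA and the TRB contig with the most UMIs, by V, J and CDR3 nucleotides, joined to RNA by cell barcode. The automatic threshold of Scrublet marked 0 cells in either library. In its place the highest scores were marked at 0.8% per 1000 cells, together with cells with at least 2 TRB chains, and doublets stayed in the reported values. Shares across depths were thinned to 2000 UMIs per cell with seed 1. Python 3.11.15, numpy 2.4.6, scipy 1.17.1, pandas 2.3.3, scanpy 1.11.5 and edgeR 4.0.16 (TMM factors alone) were used.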

Additional observations from a re-analysis of the deposited data

Results flagged for a closer look

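For 14 of the 121 named genes with a value in both libraries, the log2 ratio of Ifng-only over cytokine-negative cells had opposite signs, with counting intervals on opposite sides of 0. The difference was not tested, since each library is 1 sample. In 11 genes the ratio was above 0 in cells labelled WT and below 0 in cells labelled dKO. Over all 7913 genes tested, 125 had intervals in this order and 28 in the reverse order. The median log2 ratio over all genes was 0.08 labelled WT and −0.03 labelled dKO by CPM, and −0.02 and −0.04 with TMM. The part of scaling in the small ratios below was not tested. Of receptors, Ccr8 stood at 0.30 labelled WT and −0.83 labelled dKO, Tigit at 0.23 and −0.61, Icos at 0.27 and −0.41, Il2rb at 0.52 and −0.15 and Ifngr1 at 0.30 and −0.21. The transcription factor Maf stood at 0.43 and −0.33 and the inhibitor Id2 at 0.45 and −0.17. Ly6a stood at 0.45 and −0.10, Cd4 at 0.15 and −0.10, and the MHC class I genes H2-D1 and H2-K1 at 0.15 and −0.15, and at 0.12 and −0.085. The reverse order held for Klf2, at −0.13 and 0.24, for Il7r, at −0.28 and 0.16, and for Stmn1, a gene of dividing cells, at −0.69 and 0.53. The cytokine-negative cells labelled dKO held Tigit and Ctla4 at higher levels than those labelled WT (log2 ratios of 2.91 and 2.30 between the libraries), and the part of this in the opposite signs was not tested.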

How the results depend on the processing

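The share of Ifng-only cells was lower labelled dKO under each of the 12 alternatives tried, with the difference from WT at −9.12 percentage points as reported. It was −12.5 points among T cells, −4.54 with at least 2 Ifng UMIs, −11.1 and −6.59 after thinning to 2000 and 1000 UMIs, −12.5 among cells with a TRB contig, −10.4 with 1 cell per clonotype and −10.7 with Mki67 not used. Added after the data were seen, T cells without Foxp3 or Mki67 UMIs gave −12.8 and thinned T cells −12.7. Counts of genes past 2-fold between libraries (187 higher and 232 lower) were 924 and 1098 at a mean of at least 1 CPM, 60 and 47 at 50 CPM, 318 and 449 with at least 2 Ifng UMIs, 568 and 756 with 1 cell per clonotype, 380 and 525 after thinning and, added later, 319 and 504 with a TRB contig. The last 4 of these rest on fewer cells. The counts in both libraries over cytokine-negative cells (16 and 16) were 97 and 115 at 1 CPM and 7 and 4 at 50 CPM. They were 25 and 31 with at least 2 Ifng UMIs and 43 and 35 with 1 cell per clonotype. Beside comparison cells without naive or Treg genes they were 10 and 3. Of those 10 higher genes 4 were among the reported 16, and of the 3 lower genes 3 were. With 1 cell per clonotype, 8 of the 43 and 8 of the 35 were among the reported genes. Added later, cells with a Cd4 UMI gave 15 and 12, of which 7 and 8 were among the reported genes. TMM scaling gave 9 higher, and averaging CPM cell by cell and leaving out doublets gave 31 lower each. The cause of these shifts was not tested. Of the alternative values for named genes, 3902 lay within the counting interval of the reported value, 966 lay outside it with the same direction or from a ratio under 2-fold, and 1 reversed from past 2-fold: Igfbp7 within the library labelled dKO was −0.30 with 1 cell per clonotype. The share of members in clonotypes of at least 2 cells was 59.1% and 51.1% without doublets. No paired analysis was possible because each genotype has 1 library. With 706 members labelled dKO, 3 UMIs correspond to 2.44 CPM there, and genes under that level cannot be resolved.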
